A study of Mus musculus with 9 samples.

Results

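Newborn migrating glutamatergic neurons were picked out of 9 single-cell RNA libraries of mouse neocortex at E18.5. A cell was counted as one when at least 3 of the 5 markers *Sema3c*, *Unc5d*, *Neurod1*, *Nhlh1* and *Rnd2* each had a UMI (unique molecular identifier, the tag that marks 1 captured transcript) and when *Eomes*, *Gad1*, *Gad2*, *Top2a* and *Mki67* had none. Beforehand, any cell in which haemoglobin genes took over 1% of the UMIs was left out. In this way 434 newborn neurons were found among 19686 cells kept, of 22147 cells deposited. The 10 genes of this rule selected the cells by their own transcripts, so the levels of these genes are given as a description, with no test.

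Each library came from the neocortex of 1 animal of the Tcf4ex4WT/lacZ line, 5 labelled wild type (WT) and 4 labelled *Tcf4* knockout (KO). KO animals carry on both alleles a lacZ/neomycin cassette placed before exon 4 of *Tcf4*, so that the change is not restricted to any cell type. This removes the long isoform TCF4B, whereas the shorter TCF4A starts behind the cassette and persists, so counts of 3′ tags from *Tcf4* are no check of the knockout. The study compared the WT libraries 2, 3 and 4 (WT2, WT3 and WT4) with the KO libraries 4 and 5 (KO4 and KO5), leaving out libraries with few cells and a WT animal whose *Tcf4* lay below that of KO. These 5 libraries held 414 newborn neurons among 15479 kept cells and had 3487769 to 29767293 UMIs in total. Unless stated otherwise, a level is the average, across the cells concerned, of a gene's UMIs scaled to 10000 UMIs in each cell, and sets of 5 values follow the order WT2, WT3, WT4, KO4 and KO5.

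Glutamatergic neurons of the neocortex are born in the ventricular and subventricular zones, many of them from intermediate progenitors, which express the T-box factor *Eomes*. On leaving the cell cycle they pass through a chain of basic helix-loop-helix (bHLH) factors in which *Neurog2* is followed by *Neurod1* and then by *Neurod2* and *Neurod6*, remain multipolar for a time, and then climb along radial glia into the cortical plate. TCF4 is an E protein: it pairs with such proneural factors and the pairs bind E-boxes in DNA, whereas Id proteins bind E proteins and keep them from DNA. Of the markers used, *Sema3c* encodes a secreted semaphorin, *Unc5d* a netrin receptor of multipolar cells, *Neurod1* and *Nhlh1* are bHLH factors of newborn neurons, and *Rnd2* is a small GTPase needed for radial migration.

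Promoters are shown for the markers *Sema3c*, *Neurod1* and *Nhlh1* and for *Neurod2*, the next bHLH factor of the chain. They were chosen because the E-box is the element that TCF4 and its partners bind. No promoter sequence was available for *Unc5d* and *Rnd2*. *Sema3c* lies on chromosome 5 from 17574281 to 17730268 (plus strand), *Neurod1* on chromosome 2 from 79452521 to 79456751 (minus strand) and *Nhlh1* on chromosome 1 from 172052292 to 172057573 (minus strand). *Unc5d* lies on chromosome 8 from 28646717 to 29219636 (minus strand) and *Rnd2* on chromosome 11 from 101464999 to 101471853 (plus strand), all on GRCm38. The sequences are RefSeq promoters of 300 bases on GRCm38.p6, from 250 bases before the start used for the promoter to 50 after it. That start can differ from the gene ends given above, and the window of *Sema3c* lies wholly inside its gene span. Sequences are printed 5′ to 3′ on the strand of the gene, with each CANNTG in capitals. They span chr5:17574566-17574865 (plus), chr2:79456587-79456886 (minus), chr1:172057547-172057846 (minus) and chr11:98329596-98329895 (minus), in the order printed.
Sema3c: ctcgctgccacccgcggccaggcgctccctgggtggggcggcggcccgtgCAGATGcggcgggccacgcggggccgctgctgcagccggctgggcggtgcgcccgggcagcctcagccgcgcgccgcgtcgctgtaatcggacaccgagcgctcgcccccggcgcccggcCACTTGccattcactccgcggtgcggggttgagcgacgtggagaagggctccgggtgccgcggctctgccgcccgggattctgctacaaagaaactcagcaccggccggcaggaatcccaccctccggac
Neurod1: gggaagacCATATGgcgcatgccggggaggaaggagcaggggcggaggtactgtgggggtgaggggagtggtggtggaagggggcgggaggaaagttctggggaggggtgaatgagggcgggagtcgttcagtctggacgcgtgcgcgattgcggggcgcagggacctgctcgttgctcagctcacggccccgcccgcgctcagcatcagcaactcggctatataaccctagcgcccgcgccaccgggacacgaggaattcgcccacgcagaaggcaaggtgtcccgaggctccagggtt
Nhlh1: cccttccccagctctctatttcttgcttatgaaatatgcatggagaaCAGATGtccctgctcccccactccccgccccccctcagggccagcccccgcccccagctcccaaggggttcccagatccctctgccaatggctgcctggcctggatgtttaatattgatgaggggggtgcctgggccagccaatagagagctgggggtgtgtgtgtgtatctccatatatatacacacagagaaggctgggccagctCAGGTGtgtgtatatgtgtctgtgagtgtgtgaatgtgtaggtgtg
Neurod2: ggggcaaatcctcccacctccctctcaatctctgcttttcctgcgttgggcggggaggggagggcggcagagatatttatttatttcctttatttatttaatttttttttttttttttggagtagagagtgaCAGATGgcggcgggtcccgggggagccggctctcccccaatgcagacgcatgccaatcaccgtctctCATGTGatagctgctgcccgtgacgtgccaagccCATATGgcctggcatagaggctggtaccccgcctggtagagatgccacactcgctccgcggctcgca
CANNTG reads the same on both strands and was found 2 times for *Sema3c*, 1 time for *Neurod1*, 2 times for *Nhlh1* and 3 times for *Neurod2*. Among 32851 RefSeq promoters of the same length, 72.3% held at least 1 CANNTG and 17.6% held 3 or more. CAGATG, a form of CANNTG, was present 1 time each for *Sema3c*, *Nhlh1* and *Neurod2*, against 17.2% of all promoters, and CAGGTG, another form, 1 time for *Nhlh1*, against 20.2%, with both strands searched. These matches describe letters in the promoters and say nothing of binding in these cells.

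Some facts on the libraries precede the results. Newborn neurons were few in KO: KO5 had 3 and KO4 had 31, against 16, 96 and 268 in WT2, WT3 and WT4. The WT and KO libraries compared also differed in haemoglobin UMIs and in depth. The median share of haemoglobin UMIs in the kept cells other than newborn neurons was 0.0468, 0.0717, 0.0422, 0.272 and 0.751%, and their median depth was 2461, 3650, 4343, 2287 and 2217 UMIs. KO5 had 0 *Xist* UMIs and 899 UMIs on 4 genes of the Y chromosome, whereas the other 8 libraries had *Xist* UMIs and none on these 4 genes, so that sex differed between KO5 and the rest.

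Of the libraries that the study did not compare, 2 lay nearer to libraries of the other label in *Tcf4* and *Actb*. *Tcf4* over all kept cells was 12.2, 12.6, 12.2, 9.29 and 7.59, but 7.20 in the library labelled WT5 and 16.7 in the library labelled KO1. In newborn neurons *Actb*, the cytoskeletal beta-actin, was 148.7 in the library labelled WT5 and 82.9 in the library labelled KO1, beside 81.4, 44.7, 37.5, 150.2 and 158.1. The library labelled WT5 (6 newborn neurons) thus lay near KO4 and KO5, and the library labelled KO1 (13 newborn neurons) near WT2. Haemoglobin and depth ran the same way: in the kept cells other than newborn neurons, the median haemoglobin share was 0.453% in the library labelled WT5 and 0.0245% in the library labelled KO1, and the median depth was 2226 and 2859 UMIs. Library number and form of deposit also ran partly with genotype. KO4, KO5, WT4 and the library labelled WT5 were deposited as raw UMI counts. WT2, WT3 and the library labelled KO1 were deposited as log values. Genotype, haemoglobin, depth and this split cannot be told apart by these libraries. Results of the genotype comparison are therefore given with and without the libraries labelled WT5 and KO1. All pairs of libraries were searched for shared barcodes: 26 of 36 pairs shared some, at most 46, and no barcode was shared between newborn neurons of 2 libraries.

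Among the 414 newborn neurons of the libraries compared, 89.6% had a UMI of *Sema3c*, 84.5% of *Neurod1* and 64.0% of *Rnd2*, but only 13 cells, or 3.14%, had one of *Nhlh1*. In 228 endothelial cells and microglia, which should lack these genes, the share with a UMI was 10.1% for *Sema3c*, 8.33% for *Neurod1*, 5.70% for *Rnd2* and 0.439% for *Nhlh1*, at a median of 3264 UMIs against 4270 in the newborn neurons. The most frequent combination was *Sema3c* with *Unc5d* and *Neurod1*, in 144 cells (34.8%). *Sema3c* with *Neurod1* and *Rnd2* followed in 91 cells, and all of the markers except *Nhlh1* were found in 66. In effect the newborn neurons were selected by 4 markers, because *Nhlh1* was close to the limit of detection. Of the endothelial cells and microglia, 0 in WT2, WT3, KO4 and KO5 and 5 in WT4 had 3 or more markers.

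Levels of most markers varied little between libraries. *Sema3c* was 4.09, 4.72, 3.99, 3.66 and 3.403, *Neurod1* 2.92, 3.66, 3.71, 3.74 and 3.403, and *Rnd2* 2.87, 2.02, 2.13, 2.33 and 2.74. *Unc5d* was 1.83, 4.18, 2.93, 3.69 and 0.667, the last from the 3 cells of KO5. These values are fixed in part by the rule, which asks for a UMI of at least 3 markers in every cell. Just outside the rule, cells with 2 markers and the same silent genes numbered 53, 183, 500, 146 and 75. Just inside, cells with 3 markers numbered 14, 81, 213, 28 and 3. In WT4, *Sema3c* was 3.05 in the former and 3.90 in the latter, *Neurod1* 2.07 and 3.59, and *Mef2c*, a factor of later neurons, 5.74 and 3.55. In KO4, *Mef2c* was 9.72 with 2 markers and 6.27 with 3, and median depth was 2472 and 2760 UMIs.

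The label was checked with genes that the rule did not use, apart from *Gad1*, *Gad2*, *Top2a* and *Mki67*, which it held at 0. *Neurod6*, a bHLH factor of postmitotic glutamatergic neurons, had a UMI in 95.4% of the newborn neurons, and *Neurod2* in 93.7%, against 56.1 and 37.3% of the endothelial cells and microglia. The vesicular transporter gene *Slc17a6* was found in 25.8% and *Slc17a7*, which comes on later, in 2.42%, against 5.26 and 1.32% in the endothelial cells and microglia. The 8 interneuron markers summed to 0 to 1.08 per library, against 2.19 to 5.79 in the other kept cells, and *Gad1* and *Gad2* were at 0 by the rule. Cycling markers, with *Top2a* and *Mki67* at 0 by the rule, summed to 0.246 to 0.692, against 2.16 to 5.59 in the other cells. Oligodendrocyte markers summed to 0 to 0.311, against 0.461 to 1.16 in the other cells. Radial glia and astrocyte markers summed to 19.0, 7.06, 12.3, 12.9 and 44.4, against 23.8 to 30.1 in the other cells, the highest sum coming from the 3 cells of KO5. There *Fabp7*, a fatty acid binding protein of radial glia, stood at 30.5, against 12.5, 3.82 and 7.39 in WT2, WT3 and WT4 and 7.22 in KO4. Glutamatergic lineage markers summed to 21.5, 26.8, 22.2, 23.2 and 15.9, against 17.0, 20.4, 14.3, 15.6 and 14.9 in the other cells. In the 3 cells of KO5 they were thus close to the other cells, at 15.9 against 14.9. Radial glia and astrocyte markers there were at 44.4 against 23.8, so the label is less sure in KO5. *Fabp7* was found in all 5 libraries. Cajal-Retzius markers summed to 2.41, 0.264, 0.367, 0.431 and 1.84, against 1.82, 0.719, 0.758, 0.597 and 0.705 in the other cells. They were thus above the other cells in WT2 and in the 3 cells of KO5, and below them in WT3, WT4 and KO4.

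Factors of laminar identity were found in many newborn neurons. Of the 414 cells, 320 (77.3%) had a UMI of at least 1 of the deep layer factors *Bcl11b*, *Fezf2*, *Tbr1* and *Tle4*. By library this share was 93.8, 66.7, 81.3 and 71.0% in WT2, WT3, WT4 and KO4, and 1 of the 3 cells of KO5 had such a UMI. The share of KO4 lay within the range of the WT libraries. Mean levels of *Bcl11b*, a factor of subcerebral neurons, were 2.15, 1.21, 2.40, 2.08 and 1.84, and those of *Tbr1*, a factor of corticothalamic neurons, were 1.37, 0.978, 1.88, 1.52 and 0. Of genes linked to upper layers, *Pou3f2* had a UMI in 75.8% of the cells and *Cux2* in 37.7%. In endothelial cells and microglia, *Bcl11b* was found in 33.3%, *Tbr1* in 14.9%, *Pou3f2* in 25% and *Cux2* in 15.8%. The part of free RNA and of doublets in the detections was not tested. At the level of the cell, *Sox11* spanned 6.75 to 126.0 in WT4 with a median of 51.2, whereas *Tbr1* had a median of 0 in WT3 and KO4.

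The share of newborn neurons among kept cells was 1.35% in WT2, 5.94% in WT3 and 4.34% in WT4, and 0.738% in KO4 and 0.130% in KO5. Each WT library compared thus exceeded KO4 and KO5. WT averaged 3.88% ± 2.33 (SD, n = 3) and KO 0.434% ± 0.430 (SD, n = 2), a difference of -3.44 percentage points (2-sided exact permutation test, p = 0.2, where 3 against 2 libraries cannot go below 0.1). Exact 95% binomial intervals, which cover counting error only, were 0.774 to 2.18% in WT2, 4.84 to 7.20% in WT3, 3.85 to 4.88% in WT4, 0.502 to 1.05% in KO4 and 0.0269 to 0.380% in KO5. After thinning every cell to 1800 UMIs, the shares were 0.591, 2.84, 1.30, 0.286 and 0.0868%, with the same p of 0.2. Of the 3 glutamatergic classes (intermediate progenitors, newborn neurons and older neurons), newborn neurons made up 3.61, 15.8, 14.9, 1.74 and 0.314% (exact permutation test, p = 0.2). Intermediate progenitors made up 2.35% ± 0.923 (SD, n = 2) of kept cells in KO against 6.77% ± 2.96 (SD, n = 3) in WT (exact permutation test, p = 0.2). This difference of -4.42 percentage points turned to 1.62 at a haemoglobin limit of 0.2%, to 2.21 with the libraries labelled WT5 and KO1 added and to 3.31 over all 9 libraries.

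**Figure D1:**
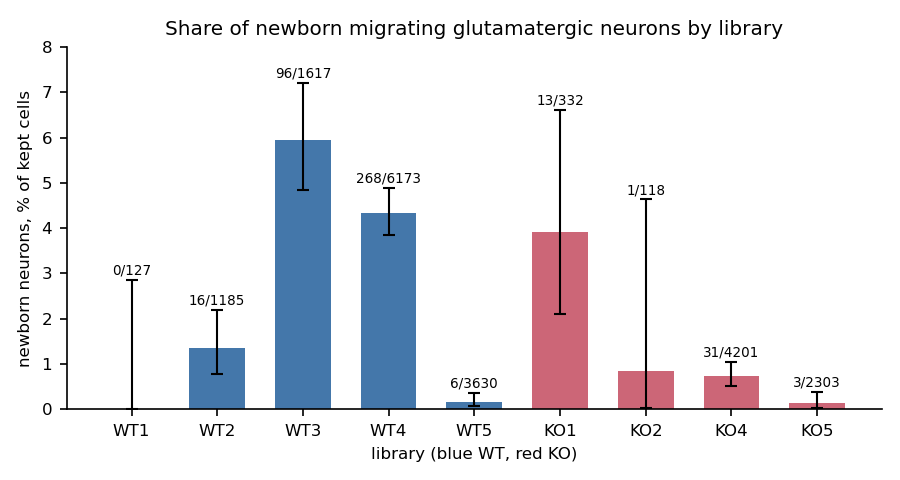
Newborn migrating glutamatergic neurons as percent of kept cells in each of the 9 libraries (bars, blue WT and red KO, with exact 95% binomial intervals); numbers above the bars are newborn neurons over kept cells. The bars of WT2, WT3 and WT4 stand above those of KO4 and KO5, while the library labelled WT5 is at 0.165% and the library labelled KO1 at 3.92%.

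With the libraries left out by the study, the genotypes overlapped. The library labelled WT5 had 6 newborn neurons among 3630 kept cells (0.165%), between KO4 and KO5, and the library labelled KO1 had 13 among 332 (3.92%), between WT2 and WT4. WT1 had 0 among 127, which allows a share of up to 2.86%, and KO2 had 1 among 118. Over all 9 libraries as labelled, WT averaged 2.36% ± 2.65 (SD, n = 5) and KO 1.41% ± 1.70 (SD, n = 4) (exact permutation test, p = 0.571). With the libraries labelled WT5 and KO1 added to the 5, p was 0.486.

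The share also moved with haemoglobin within libraries. In KO4, 23 of 1549 cells with up to 0.2% haemoglobin UMIs met the marker rule (1.48%), against 8 of 2652 cells with 0.2 to 1% (0.302%). In KO5 only 16 cells had up to 0.2%, of which 1 met the rule, while 2 of 2287 cells with 0.2 to 1% and 5 of 1561 cells over 1% did so (0.0875 and 0.320%). In the band of up to 0.2%, 16 of 1132 cells met the rule in WT2 (1.41%), 93 of 1537 in WT3 (6.05%) and 267 of 6092 in WT4 (4.38%), so that KO4 lay above WT2 and below WT3 and WT4. With the limit set at 0.2%, the genotypes differed by -0.0816 percentage points (exact permutation test, p = 1) and overlapped, with KO4 inside the range of the WT libraries and KO5 above it on 16 cells. At the limit of 1%, KO4 without KO5 stood below the WT mean by 3.14 percentage points. The part of haemoglobin in the share was not tested.

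**Figure D2:**
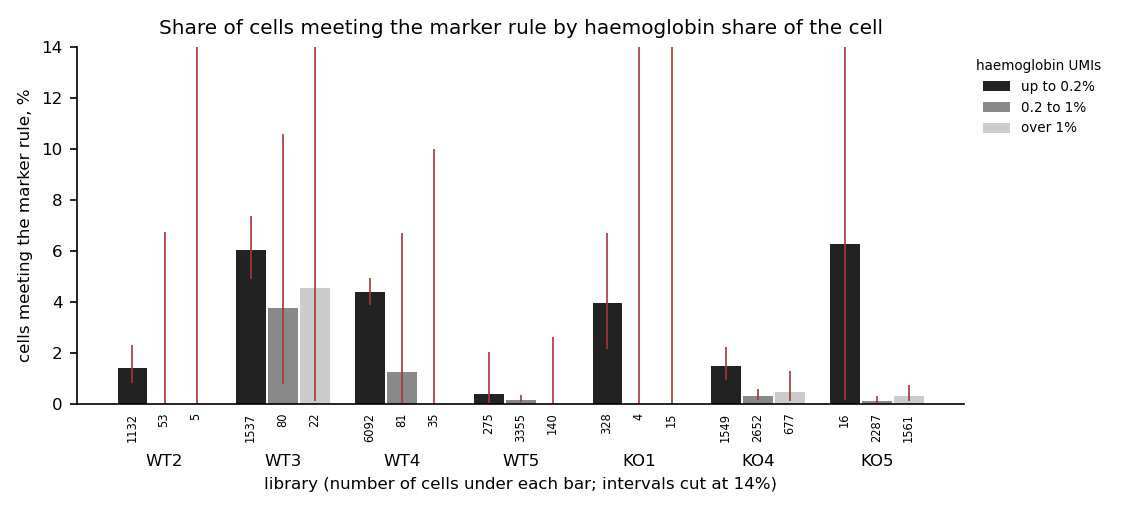
Percent of deposited cells that met the marker rule (y axis) in 7 libraries, split by the share of the UMIs of a cell that fell on haemoglobin genes (dark, up to 0.2%; grey, 0.2 to 1%; light, over 1%), with exact 95% binomial intervals in red, drawn up to 14%, and the number of cells under each bar. In KO4 the dark bar stands at 1.48% and the grey one at 0.302%, and KO5 has 16 cells in its dark bar.

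Median depth of the newborn neurons was 3473, 3564.5, 5100.5, 2765 and 3737 UMIs, with WT averaging 4046 ± 914 (SD, n = 3) and KO 3251 ± 687 (SD, n = 2) (exact permutation test, p = 0.6). Newborn neurons were deeper than the other cells of their library in WT2, WT4, KO4 and KO5 and not in WT3. A rule that asks for detected transcripts takes deeper cells more readily, so that levels per 10000 UMIs, and not detection, are compared below.

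Newborn neurons were next set beside intermediate progenitors (659 cells with *Eomes* and a UMI of *Neurog2*, *Btg2*, *Mfng* or *Sstr2*) and older glutamatergic neurons of the same libraries. The latter were 4517 cells with *Neurod2* or *Neurod6* and a UMI of at least 1 layer gene, such as *Mef2c*, *Fezf2*, *Tle4* or *Tbr1*, but with none of the markers. These comparisons use cells defined by their transcripts and are given as a description of where genes stood on the way from progenitor to neuron. Against intermediate progenitors, 303 of 5445 genes with enough UMIs (5.56%) were higher in newborn neurons in 5 of 5 libraries and 377 (6.92%) were lower. Against older neurons, 286 of 5442 genes (5.26%) were higher and 391 (7.18%) lower in all 5. Against all other kept cells, the counts were 264 of 5449 (4.84%) and 343 (6.29%).

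Genes of progenitors were already low in newborn neurons. *Neurog2*, the proneural factor upstream of *Neurod1*, was at 0.756, 0.450, 0.526, 0.522 and 0 in newborn neurons, against 7.69, 8.15, 5.61, 3.84 and 2.70 in intermediate progenitors and 0.167 to 0.412 in older neurons. *Neurog2* is among the genes that defined the progenitor class, so its difference is built in. *Pax6*, a factor of radial glia that no rule used, was at 0.373, 0.396, 0.363, 0.492 and 0, against 2.24, 1.86, 1.47, 1.41 and 1.45 in intermediate progenitors. The chromatin protein gene *Hmgb2*, high in dividing cells, was lower than in intermediate progenitors in 5 of 5 libraries (mean log2 ratio -1.61), as were *Ccnd2*, a cyclin of the G1 phase (-1.19), *Gadd45g* (-1.19), *Vim*, an intermediate filament of radial glia (-1.07), and *Dbi* (-1.41). Of 10 radial glia and astrocyte genes, 6 were lower in 5 of 5 libraries and 0 higher, with a median log2 ratio of -0.37 against -0.02 over all genes.

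A set of transcription factors peaked in newborn neurons. *Sox11*, a SoxC factor of newly postmitotic neurons, was at 54.9, 54.3, 52.4, 59.8 and 35.9 in newborn neurons. It was at 33.6, 40.3, 39.2, 32.9 and 22.1 in intermediate progenitors and at 22.5, 28.3, 25.6, 30.8 and 30.7 in older neurons, so newborn neurons had the highest value in each of the 5 libraries. *Nfib*, a nuclear factor I gene, was likewise highest in newborn neurons, at 21.9, 22.9, 20.7, 18.8 and 10.4. In intermediate progenitors *Nfib* was at 15.2, 17.7, 16.3, 10.1 and 7.36, and in older neurons at 7.12, 8.57, 7.37, 7.66 and 6.96. Of the 3 SoxC genes, 3 were higher than in intermediate progenitors and 2 higher than in older neurons in 5 of 5 libraries. *Sox4* in newborn neurons was at 11.9, 12.1, 20.7, 19.9 and 16.8 and varied more between libraries than *Sox11*.

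Of 15 genes of the bHLH chain with its E proteins and Id genes, 14 were compared with intermediate progenitors. *Neurog2* was left out as a gene of that class rule. Of these 14, 3 were higher and 2 lower in 5 of 5 libraries. *Neurod2* was at 6.22, 6.71, 9.27, 8.76 and 8.81, against 2.89, 3.06, 5.09, 3.60 and 3.77 in intermediate progenitors, a mean log2 ratio of 0.94 with 1 added to each level, as in all such ratios here. The genes *Neurog1* and *Neurod4* had 0 UMIs in the 414 newborn neurons, which for each allows a share of cells with a UMI of up to 0.887%. The E protein genes differed in level by a wide margin: *Tcf4* was at 10.4 to 22.7, *Tcf12* at 0.461 to 1.56 and *Tcf3* at 0 to 1.01. These are tags per 10000 UMIs from 3′ ends, so that transcript length does not enter. *Id2*, the most widely found Id gene, had a UMI in 91.5% of newborn neurons, whereas *Id1*, *Id3* and *Id4* were found in 2.42, 7.97 and 4.83%. In endothelial cells and microglia, *Id1* and *Id3* were found in 41.2 and 42.5%, so this class gives no measure of background for these 2 genes.

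Of 13 later neuron genes, 4 were higher than in intermediate progenitors in 5 of 5 libraries and 0 lower. *Gria2*, an AMPA receptor subunit, was higher than in intermediate progenitors in 5 of 5 libraries (mean log2 ratio 0.88), as were *Myt1l*, a neuronal zinc finger factor (0.70), and the surface gene *Cd24a* (0.66). *Stmn2*, a stathmin of growing axons, was at 22.3, 8.96, 17.3, 13.6 and 11.7, against 19.4 to 25.7 in older neurons (mean log2 ratio -0.63). *Mef2c* was at 3.78, 2.71, 3.25, 5.81 and 4.01, against 14.3, 9.86, 14.8, 12.5 and 10.4 in older neurons, but *Mef2c* is among the genes that define that class. Genes that no class rule used were lower as well. *Meg3*, a long noncoding RNA (-1.01), *Runx1t1* (-0.95), *Lmo4* (-0.89) and *Dab1*, the adaptor of Reelin signalling (-0.82), were lower than in older neurons in 5 of 5 libraries. Against older neurons 12 of the later neuron genes were compared, with *Mef2c* left out as a gene of that class rule. Of these 12, 5 were lower than in older neurons and 2 higher in all 5 libraries.

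Among genes that no rule for newborn neurons used, and with 1 added to each level, *Zbtb20*, a zinc finger repressor, had a mean log2 ratio of 1.37 against older neurons, followed by *Nfib* (1.18), *Igfbpl1* (1.01), *Meis2* (1.005) and *Sstr2* (0.95), a somatostatin receptor gene that helped to define the progenitor class. *Epha5* (0.71), an ephrin receptor, *Nfia* (0.69), *Mdk* (0.67) and *Tcf4* (0.58) were also higher in 5 of 5 libraries. Of 17 guidance genes, 3 were higher than in intermediate progenitors and 0 lower in all 5, and against older neurons 1 was higher and 3 were lower. Of 14 genes of radial migration, 5 were higher and 3 lower than in intermediate progenitors, and 0 higher and 4 lower than in older neurons. For all genes the shares were 5.56 and 6.92% against intermediate progenitors and 5.26 and 7.18% against older neurons. When every cell was thinned to 1800 UMIs, the genes higher than in all other cells in 5 of 5 libraries fell from 264 to 92.

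**Figure D3:**
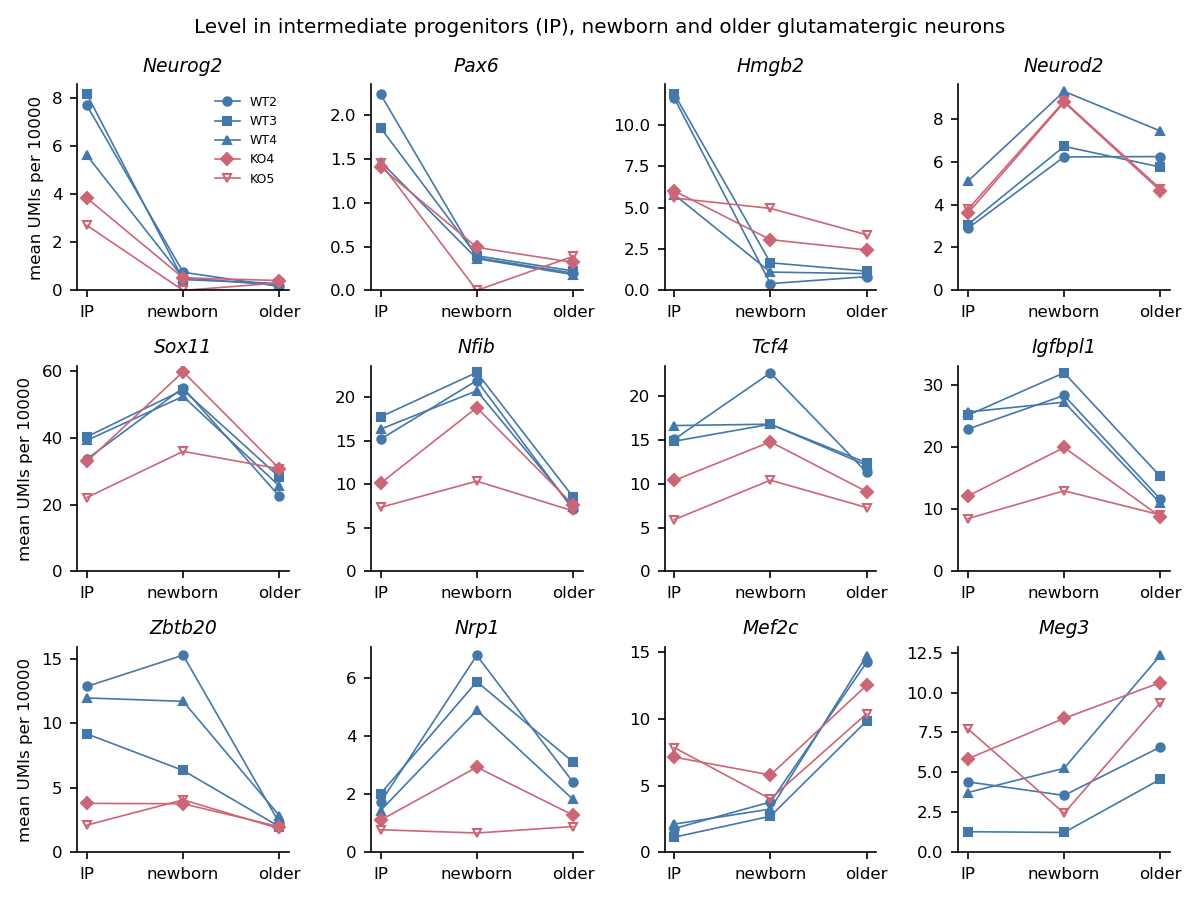
Mean UMIs per 10000 (y axis) of 12 genes in intermediate progenitors (IP), newborn neurons and older glutamatergic neurons (x axis), with 1 line per library (blue WT2, WT3 and WT4, red KO4 and KO5). *Sox11* and *Nfib* peak in newborn neurons in all 5 libraries, *Neurog2*, *Pax6* and *Hmgb2* are below their level in intermediate progenitors, and *Mef2c* is below its level in older neurons.

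*Tcf4* itself, the gene targeted in KO, was highest in newborn neurons in WT2, WT3, WT4, KO4 and KO5 alike. It was at 22.7, 16.8, 16.8, 14.8 and 10.4 in newborn neurons, against 15.1, 14.9, 16.7, 10.4 and 5.92 in intermediate progenitors and 11.3, 12.4, 12.1, 9.12 and 7.30 in older neurons. In newborn neurons the genotypes did not overlap, WT averaging 18.8 ± 3.39 (SD, n = 3) and KO 12.6 ± 3.10 (SD, n = 2). The difference on the scale of log2(value + 1) was -0.54 (standard error 0.27, limma adjusted p = 0.400), so it was not called. In the library labelled WT5 *Tcf4* was at 5.48 and in the library labelled KO1 at 24.9. With these added, the difference changed sign to 0.17 (limma adjusted p = 0.944).

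WT and KO newborn neurons were then compared across genes by limma, with 1 value per animal on the scale of log2(level + 1), which understates the change of low genes. A gene was called where its p, adjusted by Benjamini-Hochberg over all genes tested, was below 0.05. Of 8335 genes tested, 46 were called (0.552%), 25 higher in KO (0.3%) and 21 lower (0.252%), and 1031 had an unadjusted p under 0.05. The median difference over all genes was -0.12. In 32% of genes the WT and KO libraries did not overlap, in 7.04% with KO higher and in 24.9% with KO lower. The 3 cells of KO5 hold many genes at 0, and without KO5 the count was 10 (0.121%), with 10 higher (0.121%) and 0 lower (0%, with 684 genes at an unadjusted p under 0.05). Without WT2 it was 8, without WT3 9 and without WT4 37, while without KO4, when KO5 stood alone for KO, it was 2436. EdgeR on summed UMIs called 8 genes (0.096%), 7 higher (0.084%) and 1 lower (0.012%), and DESeq2 called 1. With the libraries labelled WT5 and KO1 added, 0 genes were called by limma, with 403 at an unadjusted p under 0.05.

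Genes that rose in KO newborn neurons by this test were led by *Pam*, an enzyme that amidates neuropeptides (chromosome 1 of GRCm38, 97795114 to 98095646). *Pam* was at 0.905, 2.06, 2.01, 8.99 and 7.85, with KO4 and KO5 above every WT library compared. Its log2 difference was 1.86 (standard error 0.32, limma adjusted p = 1.4e-05), it was called in 19 of 24 other settings, and it is the gene that DESeq2 called (adjusted p = 0.0063). In the library labelled WT5 *Pam* was at 4.97 and in the library labelled KO1 at 1.97, and with both added the difference was 1.001 (limma adjusted p = 0.899).

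*Actb* (chromosome 5 of GRCm38, 142903115 to 142906754) was at 81.4, 44.7, 37.5, 150.2 and 158.1, a difference of 1.56 (standard error 0.23, limma adjusted p = 3.3e-08, and 0.252 without KO5). *Clasp2*, which binds the plus ends of microtubules, was at 0.927, 0.643, 0.747, 2.94 and 6.81 (difference 1.65, limma adjusted p = 8.2e-04, and 0.0659 without KO5). *Abhd2*, a lipid hydrolase gene, was at 0.629, 0.478, 0.408, 2.83 and 2.89 (difference 1.36, limma adjusted p = 0.021). For these 3 genes the groups did not overlap, and for *Clasp2* and *Abhd2* the library labelled WT5 lay among or above KO, at 6.52 and 4.42. The other rises named by the rule of size were *Mt3*, *Kdelr2*, *Hmgb2*, *Dbi*, *Tmem165* and *Mt1*. *Mt3*, a metallothionein gene of the brain, was at 0.912, 0.767, 1.15, 1.499 and 10.4, and *Dbi* at 6.40, 2.50, 4.47, 6.78 and 19.8. KO4 exceeded the highest WT library by little in both, and the 3 cells of KO5 held the highest values.

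The falls named by the rule and given here all had 0 UMIs in KO5. *Elavl2*, a neuronal RNA-binding protein gene, was at 5.52, 4.61, 3.81, 2.49 and 0, with a difference of -1.59 (standard error 0.32, limma adjusted p = 9.4e-04). *Pabpc1*, *Eif5a*, *Pcp4*, *Bnip3l*, *Lmo4*, *Mff*, *Ank3* and *Vbp1* followed the same pattern, with KO4 at 0.757 to 4.08 and each of the WT libraries above KO4. *Lmo4*, a LIM factor of layer neurons, was at 5.38, 1.79, 2.33, 1.42 and 0. *Zbtb20*, called but not among the named falls, was at 15.3, 6.34, 11.7, 3.77 and 4.07 (difference -1.22, limma adjusted p = 0.016). It was at 2.61 in the library labelled WT5 and 11.8 in the library labelled KO1, and with both added the difference was -0.35 (limma adjusted p = 0.913). Without KO5, none of these falls was called by limma.

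Of 14 genes of radial migration, 13 were tested, and 1 fell and 0 rose. The gene that fell was *Dcx*, the microtubule protein doublecortin of migrating neurons (chromosome X of GRCm38, 143855842 to 143933311). *Dcx* was at 8.21, 6.45, 6.60, 4.55 and 0, with both KO libraries below WT, and its difference was -1.77 (standard error 0.32, limma adjusted p = 1.2e-04). Without KO5 it was -0.54 (limma adjusted p = 0.655), and with the libraries labelled WT5 and KO1 added, at 1.90 and 10.4, it was -0.65 (limma adjusted p = 0.908). *Tubb3*, a neuronal tubulin, was at 29.5, 25.1, 23.0, 17.8 and 17.6, without overlap and without a call (limma adjusted p = 0.400). *Tuba1a*, an alpha tubulin of neurons, was at 99.99, 101.4, 108.6, 81.8 and 92.8.

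Of 17 guidance genes, 16 were tested, and 1 fell and 0 rose. This was *Nrp1*, a semaphorin and VEGF receptor (chromosome 8 of GRCm38, 128358604 to 128503363), at 6.77, 5.87, 4.88, 2.93 and 0.667. Its difference was -1.41 (standard error 0.31, limma adjusted p = 0.0046). In the library labelled WT5 *Nrp1* had no UMI in the newborn neurons and in the library labelled KO1 it was at 5.56, and with both added the difference was -0.27 (limma adjusted p = 0.943). *Epha5* was at 5.32, 8.12, 10.0, 5.47 and 5.79 and was not called (difference -0.37, limma adjusted p = 0.534).

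**Figure D4:**
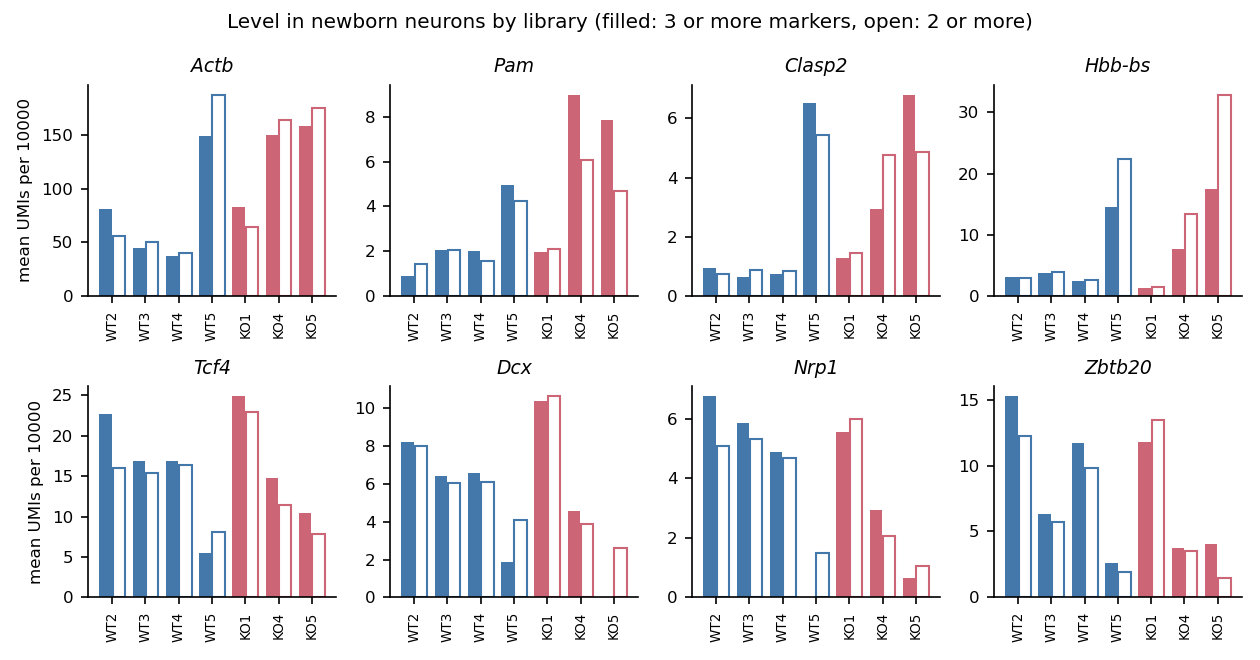
Mean UMIs per 10000 (y axis) of 8 genes in newborn neurons of 7 libraries (x axis), with filled bars for cells with 3 or more markers and open bars for cells with 2 or more (blue WT, red KO). *Actb* is at 37.5 to 81.4 in WT2, WT3 and WT4 and at 150.2 and 158.1 in KO4 and KO5, while the library labelled WT5 is at 148.7 and the library labelled KO1 at 82.9.

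None of the tested genes was called in the lists for the rule markers (4 tested), glutamatergic lineage (5), bHLH chain (12), upper layer identity (8), deep layer identity (7), SoxC (3) and later neuron genes (13). Of the 12 genes that the study chose on these samples, which are not independent evidence, 1 (*Dcx*) fell, 6 had WT and KO without overlap, all 6 lower in KO, where 24.9% of all genes were so, and the median difference was -0.56 against -0.12 over all genes. *Neurod2* averaged 7.40 ± 1.64 (SD, n = 3) in WT against 8.79 ± 0.0324 (SD, n = 2) in KO and was not called (difference 0.24, limma adjusted p = 0.689). Of 81 ribosomal protein genes tested, 5 rose (*Rplp1*, *Rps12*, *Rps20*, *Rps21* and *Rps26*) and 0 fell, beside 0.3 and 0.252% of all genes, with a median difference of 0.40. *Rps12* was at 32.3 in the library labelled WT5 and 13.1 in the library labelled KO1, and *Rplp1* at 48.9 and 14.9. With libraries 4 and 5 only, the differences of *Rps12*, *Rps20* and *Rplp1* went from 1.25, 1.07 and 1.27 to 0.089, 0.21 and 0.36. Their sum was 1514, 1387, 1817, 2113 and 2227 in newborn neurons and 1739, 1521, 1872, 2193 and 2113 in the other cells, so both KO libraries were above WT outside newborn neurons as well.

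Of the markers of other cells, haemoglobin genes were called. The 4 haemoglobin genes tested rose, and the summed erythroid markers were 5.60, 8.12, 4.76, 15.6 and 49.2 in newborn neurons and 6.73, 8.54, 5.42, 32.2 and 72.1 in the other cells. Endothelial markers summed to 0, 0.0407, 0.159, 0.207 and 1.84, and microglial markers to 0, 0, 0.210, 0.297 and 1.84, where the last values come from the 3 cells of KO5 and KO4 was close to WT4. Their part in the genotype differences was not tested. In the lists for radial glia and astrocytes (9 tested), cycling cells (2), interneurons (5), striatal neurons (3), oligodendrocyte lineage (1), microglia (2), Cajal-Retzius cells (2) and stress and immediate early genes (5), 0 were called by limma. Of the 4 tested intermediate progenitor markers 0 were called, and of the endothelial markers 0 were tested.

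Because KO5 held 3 newborn neurons, the rule was also loosened to at least 2 markers, which gave 69, 279, 768, 177 and 78 cells. Of 8608 genes tested, 172 were then called by limma (2%), 98 higher in KO (1.14%) and 74 lower (0.86%), and 20 of the 46 genes called with 3 markers were among them. *Actb*, *Pam*, *Clasp2*, *Abhd2*, *Dcx* and *Nrp1* were called again. *Dcx* was at 8.02, 6.03, 6.11, 3.88 and 2.63 (difference -0.86, limma adjusted p = 0.010), with UMIs in every library. *Nrp1* was at 5.10, 5.34, 4.69, 2.06 and 1.05 (difference -1.27, limma adjusted p = 2.4e-04). Of the guidance genes, *Epha5*, *Plxna2* and *Lrp8*, a Reelin receptor, also fell.

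*Nfib*, called under the looser rule (difference -0.96), was not called with 3 markers (limma adjusted p = 0.372). *Mef2c*, a gene of older neurons, rose with 2 markers (difference 1.06), as did *Fabp7* (0.80) and *Runx1t1* (1.29). The added libraries, however, lay on the side opposite to their labels for most of these genes. Of the 172 genes, the library labelled WT5 was nearer to the KO mean in 158 and the library labelled KO1 nearer to the WT mean in 124. Of the 46 genes called with 3 markers, the counts were 30 and 38. The same counts were not made over all genes tested. They therefore do not show whether the called genes differ in this from other genes. With both libraries added to the looser rule, 0 of 9087 genes were called by limma (541 at an unadjusted p under 0.05).

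*Id2*, which encodes a partner that keeps E proteins from DNA, followed the labels in all 7 libraries. With at least 2 markers it was at 8.36, 12.4, 10.1 and 7.59 in WT2, WT3, WT4 and the library labelled WT5, and at 4.53, 4.66 and 4.15 in the library labelled KO1, KO4 and KO5. All WT libraries lay above all KO libraries. Its difference was -1.05 over the 5 libraries (limma adjusted p = 0.0022) and -0.94 over the 7 (limma adjusted p = 0.784, so not called). With 3 markers *Id2* was at 6.33, 12.4, 9.63 and 6.37 in WT and at 5.59, 4.25 and 4.45 in KO in the same order, with the lowest WT and the highest KO library close together, and was not called (limma adjusted p = 0.149 over the 5 libraries). Across the 7 libraries, 4.28% of genes were lower in KO without overlap and 1.39% higher with 3 markers, and 5.37 and 1.82% with at least 2. *Id2* was singled out after its values were seen.

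The last question was whether genotype acted differently in newborn neurons than in their neighbours of the lineage, tested as a difference of differences within each library. Against intermediate progenitors, 0 of 7948 genes (0%) were called by limma, with 703 at an unadjusted p under 0.05. Against older neurons, 1 of 7821 genes was called (0.0128%), the long noncoding RNA *Malat1*. In newborn neurons *Malat1* was at 315.3, 216.1, 204.0, 177.8 and 234.8, and in older neurons at 267.7, 161.7, 169.8, 208.8 and 258.1. Newborn neurons were above older ones in the WT libraries and below them in KO4 and KO5, a difference of -0.49 (standard error 0.087, limma adjusted p = 0.027). Without WT2, WT3 or KO5 in turn, limma called 0 genes, with 391, 297 and 552 at an unadjusted p under 0.05, and the count without KO4 was 2250. *Pam*, *Actb* and *Clasp2* were called in older neurons (differences 1.49, 1.55 and 1.51) and in intermediate progenitors (0.83, 2.02 and 1.68) as well, while *Dcx* was called in intermediate progenitors (-0.66) and not in older neurons (-0.41). For *Dcx* the difference of differences was -1.36 against older neurons (limma adjusted p = 0.552) and -1.11 against intermediate progenitors (limma adjusted p = 0.554), neither of which was called.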

How the data were processed

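Single-cell suspensions from E18.5 neocortex were profiled with 10x 3′ v2 chemistry, 1 library per animal. Per the labels, reads were processed with Cell Ranger (2.1.0) on mm10/GRCm38 and matrices were made with Seurat (2.3.4). The files that the authors deposited for the libraries numbered 4 and 5 of both genotypes hold raw UMI counts. In the remaining 5 files the deposited values were the natural log of 1 plus UMIs per 10000, from which 100% of values gave whole UMIs within 1e-06. Depth was 348105 to 29767293 UMIs per library, and intervals cover counting error only.

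The choice of cells and of gene lists was made with earlier results of these data known. Intermediate progenitors, older glutamatergic neurons, and endothelial cells and microglia (at least 3 of 8 markers) were defined by detected genes, with no clustering. Doublets were not called; cells with markers of other classes were dropped by the rule alone. Levels were averaged per library, and genes reaching 0.1 UMIs per 10000 in 2 libraries were tested on log2(level + 1) by limma-trend with robust variances (limma 3.58.1, R 4.3.3), with 1 library per animal as the replicate. Because part of the files held log values, edgeR (4.0.16, quasi-likelihood) and DESeq2 (1.42.0) on summed UMIs were alternatives. Shares and depths were compared by exact permutation over libraries (scipy 1.17.1) with Clopper-Pearson 95% intervals. Fits were tested on simulated data.

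Named genes were the 10 genes of the rule, members of the lists, and of the others the 10 largest rises and 10 largest falls among called genes whose groups did not overlap and whose UMIs summed to 50 or more. Some genes that these rules take in are not reported here. Genes called only with 2 markers, *Malat1* and *Zbtb20* were named after their values were seen. Alternatives changed the markers required, haemoglobin limit, depth, normalization, filter, pseudocount and libraries, and the use of the libraries labelled WT5 and KO1, of libraries 4 and 5 only, of no haemoglobin limit and of weights was chosen after seeing the data.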

Additional observations from a re-analysis of the deposited data

Results flagged for a closer look

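Among WT2, WT3, WT4 and the library labelled WT5, the library labelled WT5 stood apart from the others for *Clasp2* (6.52), *Abhd2* (4.42), *Hba-a1* (7.56) and *Hbb-bs* (14.5), all in UMIs per 10000 in newborn neurons and all high. WT2 stood apart for *Lmo4* (5.38). In all, 34 such comparisons of the farthest sample with its group were made and 5 went beyond the 95% limit. Apart from *Tcf4* and the shares of newborn neurons, the genes compared were ones called between the genotypes. That choice favours genes for which WT2, WT3 and WT4 lie close together, so the usual chance rate of the limit does not apply. The genotype difference of *Malat1* in newborn neurons differed from that in older neurons by -0.49 on the log2 scale (limma adjusted p = 0.027).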

How the results depend on the processing

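The difference in the share of newborn neurons, -3.44 percentage points, ranged from -8.04 with at least 2 markers to -0.0816 at a haemoglobin limit of 0.2%, and most of these designs could not reach 0.05. Of 46 genes called between genotypes, the count became 4 with every cell thinned to 1800 UMIs, 70 with at least 4 markers, 172 with at least 2, 9 at a haemoglobin limit of 0.2%, 5 without the 5% of cells with most UMIs, 691 with WT3 and WT4 against KO4 alone (the libraries with at least 20 newborn neurons, where KO4 is assumed to vary like WT), 2 at a filter of 0.5, 8 by edgeR with TMM, 7 with RLE, 1 by DESeq2 and 7 with libraries weighted by cells. It was 0 with WT5 added, with WT5 and KO1 added at 3 or at 2 markers, and with libraries 4 and 5 only (limma, with 484, 403, 541 and 59 at an unadjusted p under 0.05). Leaving out 1 library gave 8 to 2436. The share of calls that were higher in KO was 54.3%, against 31.4% with 4 markers, 87.5% by edgeR with TMM and 42.9% at a pseudocount of 0.25. For the difference from older neurons, the same 3 libraries gave 847 genes and leaving out 1 library 0 to 2250. From intermediate progenitors the counts were 933, 2 after thinning, and 0 to 2294. Genes higher than in other cells in 5 of 5 libraries numbered 92 after thinning. Depth turned to 66.8 UMIs higher in KO at a haemoglobin limit of 0.2%, 98.8 with WT5 and KO1 added and 1372.5 over all libraries with newborn neurons. *Tcf4* turned to 0.17 with WT5 and KO1 added and to 0.32 with libraries 4 and 5 only. With at least 4 markers *Mt3* turned to -0.27, *Hmgb2* to -0.13, *Elavl2* to 0.23, *Eif5a* to 0.31, *Dcx* to 0.11 and *Hba-a1* to -0.84. *Mff* turned to 0.17 after thinning, *Hbb-bt* to -0.28 at a haemoglobin limit of 0.2% and *Nrp1* to 0.078 with libraries 4 and 5 only. The cause of these changes was not tested. For single genes, 212 values stayed on their side of the threshold and 498 with the same direction did not pass it. No paired analysis was possible because WT2, WT3 and WT4 share only the number 4 with KO4 and KO5. A difference resting on the 3 cells of KO5 is limited by about 10540 UMIs.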
